A study of Rattus norvegicus with 34 samples.

Results

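The response of NRK-52E cells to monuron was compared between 2 exposure times. For every gene the difference between monuron cells and vehicle cells at 24 h was subtracted from the same difference at 72 h, so that a positive value means a response that moved upward between the times and a negative value a response that moved downward. The members are the arrays of this comparison, chosen from the labels for cell line, treatment and time. They number 12 of the 34 samples in the series, with 3 arrays in each of 4 groups: monuron at 24 h, DMSO at 24 h, monuron at 72 h and DMSO at 72 h.

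NRK-52E is an epithelial line from the kidney of a normal rat. The labels call its cells proximal tubule epithelium and give Osborne-Mendel as genotype. The cells grew in medium with 10% serum and were confluent before exposure, and the vehicle of the compound, 0.1% DMSO, was the control. Titles and treatment labels name the compound monuron, a phenylurea herbicide, but the treatment protocol abbreviates it CHL and the design text names chlorothalonil, a fungicide, at 1.1 µM, the IC10 at 72 h. The compound is called monuron below as in the labels, its identity is in doubt, and its concentration in these cells is not known. The 3 arrays of a group are labelled as biological replicates and come from 1 cell line and, per the protocol, 3 studies at each time, so the p-values cover the spread between these cultures and not between animals.

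Cells that lack amino acids, or whose protein folding or mitochondria are disturbed, phosphorylate the translation factor eIF2α, and the factor ATF4 then induces enzymes and carriers for amino acids, tRNA synthetases, the feedback protein Trib3 and the secreted hormone Fgf21. Unfolded protein in the endoplasmic reticulum (ER) activates further branches, through ATF6 and XBP1, that induce chaperones and the vesicle machinery from ER to Golgi. Ribosome production, growth and division are adjusted by the same signals, and herbicides and other planar compounds can also bind the aryl hydrocarbon receptor, whose best known target is Cyp1a1.

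Of 10 proximal tubule markers only Gatm lay above the array median on all 12 arrays, and 7, among them Lrp2, Cubn, Slc34a1 and Hnf4a, lay above it on none. Of 10 epithelial markers Krt8 and Tjp1 were above it on all 12 arrays and 8, with Cdh1 and Epcam, on none. Of 10 fibroblast and smooth muscle markers 7 were above it on all 12 arrays (Vim, Col1a1, Col1a2, Col3a1, Acta2, Tagln and Postn), 1 of 7 endothelial markers was (Egfl7) and 1 of 7 blood cell markers was (Cd14). The summed level of the mesenchymal markers (log2) ran from 16.15 to 16.25 in DMSO and 16.30 to 16.31 in monuron cells at 24 h and from 15.80 to 16.20 and 16.02 to 16.10 at 72 h. That of the blood cell markers ran from 12.17 to 12.42 and 12.02 to 12.15 at 24 h and from 11.17 to 11.39 and 10.30 to 10.67 at 72 h, and this sum was set almost wholly by Cd14, which moved by -0.62 ± 0.14 (SE) (adjusted p 0.0035), while the macrophage marker Cd68 moved by 1.70 ± 0.40 (SE) (adjusted p 0.0038). Cd68 was above the array median on some of the 12 arrays only. The epithelial sum ran from 14.62 to 14.67 in DMSO and 14.48 to 14.52 in monuron cells at 24 h and from 14.21 to 14.42 and 13.69 to 13.94 at 72 h. The endothelial sum ran from 7.24 to 7.69 and 7.26 to 7.38 at 24 h and from 6.73 to 7.21 and 6.52 to 6.59 at 72 h, and the proximal tubule sum from 8.58 to 8.91 and 8.91 to 9.32 and then from 8.28 to 9.40 and 8.38 to 8.67. At 72 h the epithelial, endothelial and blood cell sums were lower with monuron with no overlap, and the part of these cell markers in the results was not tested. The label of a proximal tubule cell thus lacked most of its defining transcripts here. Fewer cells and less RNA per cell cannot be told apart in such bulk samples. Within a group, arrays correlated at 0.987 or more. DMSO 72 h replicate 3 stood apart: over 1698 genes, those called in the comparison of times without it and at least 2-fold apart between the other arrays of 72 h, it lay at a median position of 0.415 on the way from the other DMSO arrays (0) to the mean of the monuron arrays (1), with an interquartile range of 0.237 to 0.597. These genes were chosen without it, and no such position was computed for the other arrays. DMSO 72 h replicate 1 also varied more than most, with a residual SD of 0.330 beside 0.393 for replicate 3 and 0.157 to 0.257 for the other arrays of 72 h, and limma's array weights of 0.206 and 0.126, next to 0.227 for monuron 72 h replicate 3. Results that rest on DMSO 72 h replicate 3 are given with and without it. The difference between 3′ and 5′ beta-actin probe sets, a sign of RNA quality, was 1.40 on DMSO 72 h replicate 3 and ran from 1.16 to 1.38 on the other 11 arrays, and its part in the results was not tested.

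The response differed between 24 h and 72 h at 3423 of 9042 genes tested (37.9%; limma's moderated test on the deposited log2 values, Benjamini-Hochberg adjusted p below 0.05). It moved upward at 1655 genes (18.3%) and downward at 1768 (19.6%), and at 1109 of them by at least 2-fold (451 upward, 658 downward). The shares of 18.3% and 19.6% are those to set beside each list's count of upward and downward moves. The median over all genes was 0.001. For comparison, monuron and DMSO differed at 1227 genes (13.6%) at 24 h and at 5572 genes (61.6%) at 72 h. The median absolute difference was 0.184 at 24 h and 0.428 at 72 h (log2). Among the 3423 genes the difference was larger in size at 72 h for 3035 and larger at 24 h for 388.

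Each of the 3423 genes was placed by where its difference passed the threshold. The response arose between the times at 2808 genes, which were called at 72 h and not at 24 h (1361 higher and 1447 lower with monuron). It grew at 149 genes called at both times with the same sign and larger at 72 h (50 higher, 99 lower). It faded at 207 genes called at 24 h and either uncalled or smaller at 72 h (100 that had been higher and 107 that had been lower). It turned at 138 genes called at both times with opposite signs (74 to higher, 64 to lower). The other 121 genes passed at neither time. The typical arisen response had a median of 0.01 at 24 h and 0.77 at 72 h when upward and of -0.03 and -0.87 when downward. The typical turned gene went from -0.37 to 0.45 or from 0.52 to -0.54. These class sizes moved with single arrays. Without DMSO 72 h replicate 3 the response grew at 604 genes and turned at 223. It grew at 37 to 65 when any 1 array of 24 h was left out. Leaving out any of these except DMSO 24 h replicate 3 gave 43 to 67 turned and 100 to 126 faded. The plot of the 2 differences against each other shows the classes.

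**Figure D1:**
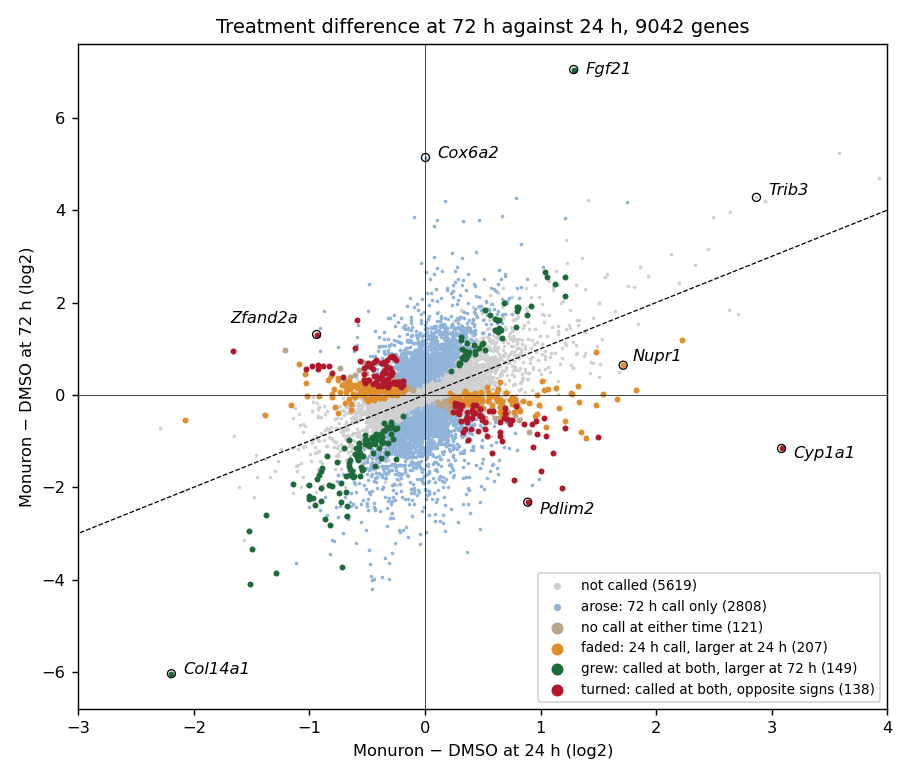
Difference between monuron and DMSO means (log2) at 24 h (horizontal) and at 72 h (vertical), 1 point per gene tested (9042), coloured by class; on the dashed line the 2 differences are equal. The 2808 arisen genes form a vertical cloud around 0 at 24 h, Fgf21 lies at 1.29 and 7.05, and the 138 turned genes fill the upper left and lower right quadrants.

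Most of these genes moved in the exposed cells. From 24 h to 72 h the level moved in monuron cells at 5484 genes (60.7%) and in DMSO cells at 2526 (27.9%). In monuron cells 28.6% of all genes tested rose and 32% fell, and in DMSO cells 11.6% rose and 16.4% fell. Of the 3423 genes, 2325 moved in monuron cells only, 383 in DMSO cells only, 338 in both in the same direction and 259 in both in opposite directions, and 118 passed in neither. The median absolute change was 0.710 in monuron cells and 0.242 in DMSO cells, against 0.419 and 0.230 over all genes. The monuron change was the larger at 2793 of the 3423 genes, and at 6211 of all 9042 genes tested. Of the 9042, 3755 moved in monuron cells only, 797 in DMSO cells only and 1470 in both in the same direction. Another 259 moved in opposite directions, and 2761 passed in neither. At some genes the level moved in the DMSO cells instead. Egr2, an immediate early transcription factor, read 8.62, 8.61 and 8.54 in DMSO at 24 h, 7.72, 7.67 and 7.64 in monuron at 24 h, 5.99, 5.80 and 7.18 in DMSO at 72 h and 7.37, 7.48 and 8.46 in monuron at 72 h. It fell in DMSO cells (-2.27) and was called in neither direction in monuron cells (0.09), and its response moved upward by 2.36 ± 0.44 (SE), adjusted p 0.00076. With the mean of all its probe sets that change was 1.19. Lama3, a laminin chain of epithelial basement membrane, and Steap1, a metalloreductase, had the same form, with -2.43 and -1.91 in DMSO cells and 0.01 and 0.18 in monuron cells.

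Targets of ATF4 held, with all arrays, the largest upward move of all genes tested, Fgf21, and 1 downward move, Nupr1. Of 38 tested genes of the ATF4 pathway 12 moved upward and 1 downward, with a median of 0.88. At 24 h 13 of them were higher with monuron, and at 72 h 34 were. Of all genes tested 6.43% were higher at 24 h and 30.7% at 72 h, the shares to set beside each such count of higher genes. Fgf21, a hormone secreted under metabolic stress, moved by 5.76 ± 0.32 (SE), adjusted p 3.8e-08, and by 5.43 to 5.97 when any 1 array was left out. Without DMSO 72 h replicate 3 the change of Cox6a2, at 7.12, was larger. The values of Fgf21 were 2.27, 2.27 and 2.29 in DMSO at 24 h, 3.51, 3.74 and 3.44 in monuron at 24 h, 2.25, 2.26 and 2.67 in DMSO at 72 h and 9.02, 9.21 and 10.09 in monuron at 72 h. At 24 h they lay under the array median in both treatments, and at 72 h all monuron arrays lay far above all others. Of the 12 arrays only these 3 were above the array median, and a gene was tested only if 3 cell arrays were. The rank of Fgf21 thus holds among genes that passed this filter. Aqp1 (7.84 and 7.00) and Hlf (8.28 and 6.48), high on DMSO 72 h replicates 1 and 2 only, were not tested.

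Nupr1, a small stress-induced chromatin protein, went the other way, from a difference of 1.71 at 24 h to 0.64 at 72 h (-1.07 ± 0.17 (SE), adjusted p 0.00027). It read 9.26, 9.43 and 9.43 in DMSO at 24 h, 11.12, 11.10 and 11.04 in monuron at 24 h, 11.08, 11.34 and 11.71 in DMSO at 72 h and 11.92, 12.09 and 12.04 in monuron at 72 h. Monuron arrays were above DMSO arrays at both times without overlap. The level rose in both arms, by 0.93 in monuron and by 2.0 in DMSO cells, and the DMSO rise was the larger.

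For other ATF4 targets the value turned on single DMSO arrays of 72 h. Trib3, a pseudokinase that restrains ATF4, read 7.79, 7.70 and 7.97 in DMSO at 24 h, 11.10, 10.62 and 10.34 in monuron at 24 h, 5.60, 6.86 and 11.44 in DMSO at 72 h and 12.03, 12.04 and 12.67 in monuron at 72 h. DMSO 72 h replicate 3 lay more than 4 log2 units above the other DMSO arrays of its time and below the monuron arrays. The change was 1.41 ± 1.29 (SE) with adjusted p 0.409, and without that array 3.15 with adjusted p 3.4e-05. It was 0.23 without DMSO 72 h replicate 1 and 0.86 without replicate 2. For Asns, asparagine synthetase, the value was 1.05 ± 0.72 (SE) and did not pass (adjusted p 0.261), it was 2.05 and passed without that array, and it was 0.41 without DMSO 72 h replicate 1. Atf3, a stress-induced transcription factor, had 2.81 ± 1.29 (SE) (adjusted p 0.0959, or 0.0237 with the replicate number within each time as a block), with 4.56 without the array and 1.74 without DMSO 72 h replicate 1. Without DMSO 72 h replicate 3, 31 of the 38 genes moved upward, where 25.7% of all genes tested did. The count was 5 without monuron 72 h replicate 3 or DMSO 72 h replicate 2, and it was 7 when any DMSO array of 24 h was left out, or DMSO 72 h replicate 1, monuron 24 h replicate 2 or 3, or any monuron array of 6 h, a time the fit also holds. Chac1, Ddit3 and Atf4 were uncalled with all arrays and moved by 1.95, 1.22 and 1.47 without DMSO 72 h replicate 3. Without DMSO 72 h replicate 1 their values were -0.03, 0.14 and 0.48. Stc2, a secreted glycoprotein, moved by 2.54 ± 0.26 (SE) and was under the array median on all arrays except those of monuron at 72 h. With low values set to the median its change was 0.98.

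The sequences before the start sites of Fgf21, Nupr1 and Trib3 are shown because all 3 hold the letters of the CHOP and ATF4 composite element while their responses differ over time. TGATGNAA was found in 148 of 7669 tested genes with a promoter window (1.93%), in 3.98% of all 33469 windows, and in 6 of 32 genes of the ATF4 pathway: Fgf21, Nupr1, Trib3, Chac1, Herpud1 and Jdp2. Of these, Fgf21 and Herpud1 grew, Nupr1 faded and the other 3 were uncalled with all arrays. In each of the 3 genes the letters were on the strand opposite to the one printed, so that the capitals show the reverse complement. The nearest base lay 136 bases before the annotated start in Fgf21, 48 in Nupr1 and 14 in Trib3. The windows come from RefSeq on GRCr8 and are written 5′ to 3′ along the gene over the 250 bases before the start: chr1:105221377-105221626 (minus strand) for Fgf21, chr1:190645902-190646151 (minus strand) for Nupr1 and chr3:161275534-161275783 (minus strand) for Trib3. A match is a description of letters.
Fgf21: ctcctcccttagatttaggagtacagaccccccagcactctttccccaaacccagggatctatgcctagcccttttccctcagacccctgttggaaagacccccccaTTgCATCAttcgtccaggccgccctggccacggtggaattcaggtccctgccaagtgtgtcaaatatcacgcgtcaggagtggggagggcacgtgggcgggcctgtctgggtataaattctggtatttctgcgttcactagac
Nupr1: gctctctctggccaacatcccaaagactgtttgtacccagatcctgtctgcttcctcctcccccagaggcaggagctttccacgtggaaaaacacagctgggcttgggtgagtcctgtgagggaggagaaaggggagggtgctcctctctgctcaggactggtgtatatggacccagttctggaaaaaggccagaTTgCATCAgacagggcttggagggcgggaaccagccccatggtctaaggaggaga
Trib3: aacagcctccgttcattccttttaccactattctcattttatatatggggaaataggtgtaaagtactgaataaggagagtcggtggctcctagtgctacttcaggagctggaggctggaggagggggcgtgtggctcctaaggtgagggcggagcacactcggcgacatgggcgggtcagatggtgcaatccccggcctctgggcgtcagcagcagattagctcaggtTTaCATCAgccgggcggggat

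Cytosolic tRNA synthetases, which load amino acids onto tRNA, moved upward at 14 of 22 genes and downward at 0, and the median was 0.83. At an unadjusted p below 0.05 limma gave 19 upward and 0 downward. At 24 h 3 were higher with monuron, at 72 h 21 were. Tars1, the threonine enzyme, read 10.73, 10.76 and 10.76 in DMSO at 24 h, 11.01, 10.93 and 10.92 in monuron at 24 h, 10.11, 10.33 and 10.95 in DMSO at 72 h and 11.63, 11.65 and 11.68 in monuron at 72 h. All monuron arrays of 72 h lay above all other arrays, and the change was 0.98 ± 0.21 (SE), adjusted p 0.0017. Yars1, the tyrosine enzyme, moved by 1.25 ± 0.32 (SE). Aimp2, a scaffold of the synthetase complex, turned from -0.35 to 0.48. The upward count was 21 without DMSO 72 h replicate 3 and 9 without monuron 24 h replicate 2, DMSO 24 h replicate 2, monuron 72 h replicate 3 or DMSO 72 h replicate 2. The mitochondrial synthetases gave 2 upward of 11 and a median of 0.07, near the share over all genes.

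Enzymes of amino acid synthesis gave 4 upward and 1 downward of 17, and carriers 3 and 3 of 17. Without DMSO 72 h replicate 3 these became 13 and 2, and 9 and 3, and with the replicate block the carriers gave 6 and 3. The synthesis count also moved under most other omissions, to 1 without monuron 72 h replicate 3 or DMSO 72 h replicate 2, and the upward count of carriers to 1 without monuron 24 h replicate 2 or DMSO 24 h replicate 1. Oat, ornithine aminotransferase of mitochondria, moved by 1.17 ± 0.12 (SE), adjusted p 1.7e-05, from -0.13 to 1.04. Slc1a5, the carrier that brings in glutamine, read 11.02, 10.91 and 11.02 in DMSO at 24 h, 11.27, 11.19 and 11.23 in monuron at 24 h, 9.67, 10.33 and 11.45 in DMSO at 72 h and 12.52, 12.49 and 12.80 in monuron at 72 h. Its monuron arrays of 72 h lay above all others and the change was 1.88 ± 0.38 (SE), adjusted p 0.0015. Slc38a9, the lysosomal arginine sensor, and Slc6a6, the taurine carrier, moved by -1.30 (-0.76 with arrays weighted by their fit) and -0.94.

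**Figure D2:**
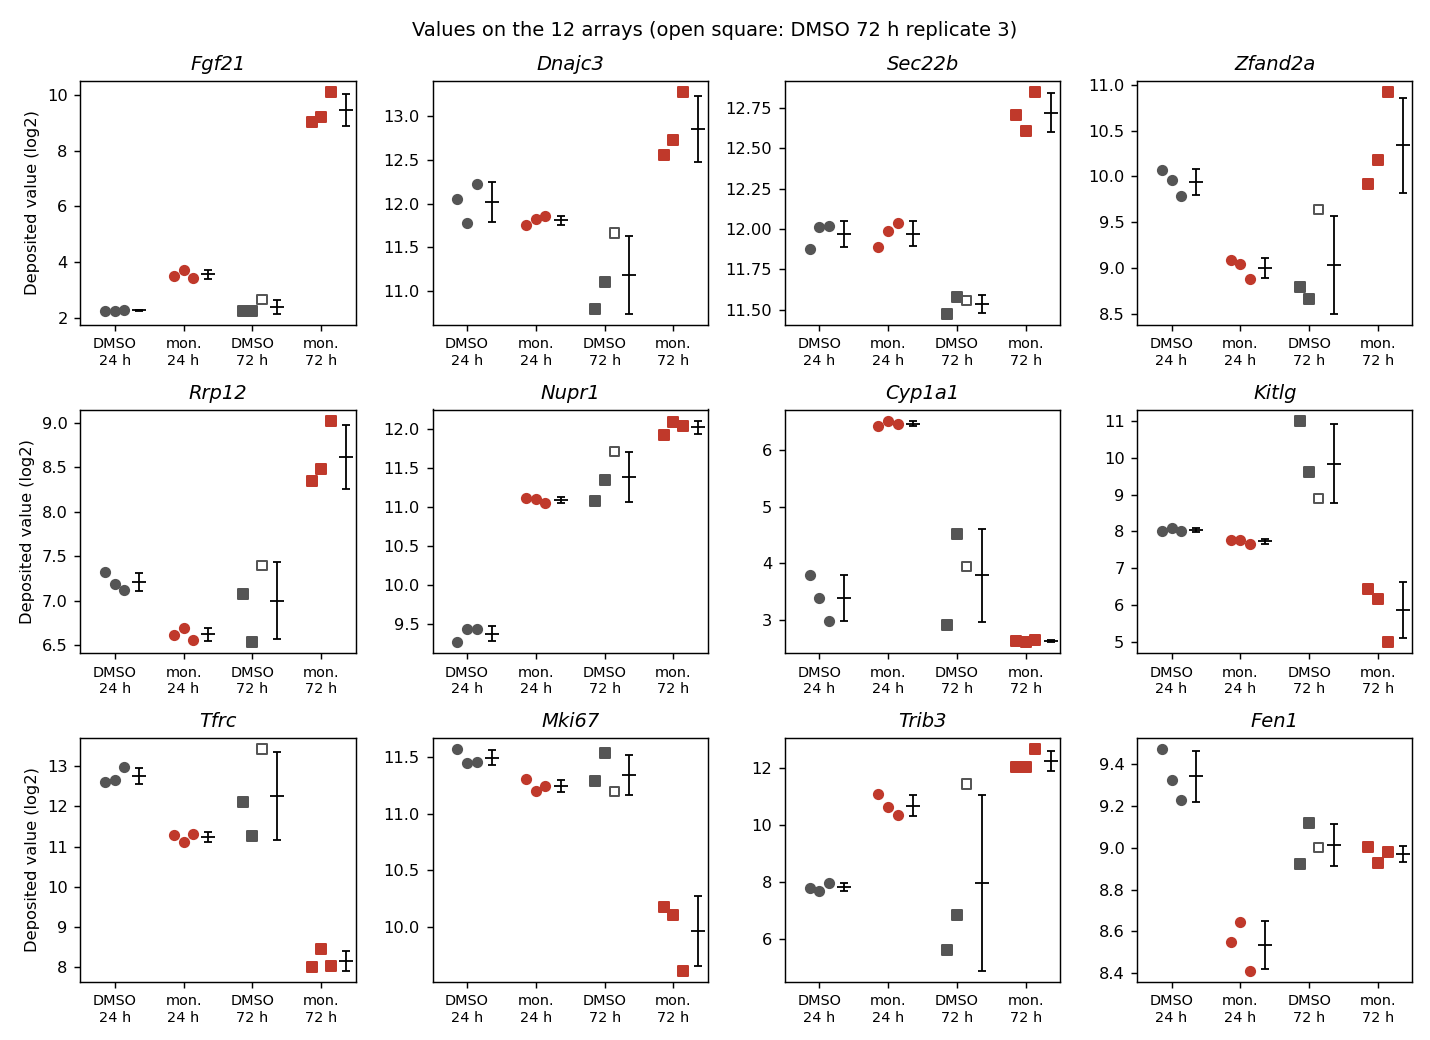
Deposited log2 values (vertical axis) of 12 named genes on each of the 12 arrays, in DMSO (grey) and monuron (red) at 24 h (circles) and 72 h (squares); the black bar is the group mean with its SD over 3 arrays, and vertical axes do not start at 0. The open square is DMSO 72 h replicate 3, which reads 11.44 for Trib3 against 5.60 and 6.86 on the other DMSO arrays of 72 h, and for Sec22b stays with them.

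Genes of the secretory pathway were rarely called at 24 h and often at 72 h. Among genes of ER folding and ER stress 23 of 39 moved upward and 1 downward, Dnajc10, with a median of 0.64. At 24 h 5 of the 39 were higher and at 72 h 33. Dnajc3, an ER co-chaperone that also inhibits the eIF2α kinase PERK, read 12.05, 11.78 and 12.23 in DMSO at 24 h, 11.76, 11.83 and 11.85 in monuron at 24 h, 10.79, 11.10 and 11.66 in DMSO at 72 h and 12.55, 12.73 and 13.28 in monuron at 72 h. Its monuron arrays of 72 h lay above all others and its DMSO arrays of 72 h below all others. It moved by 1.88 ± 0.27 (SE), adjusted p 0.00013, and it rose in monuron cells (1.04) and fell in DMSO cells (-0.83). Selenos, a selenoprotein of ER-associated degradation, moved by 1.22 ± 0.15 (SE), from -0.02 at 24 h to 1.19 at 72 h. Sec61a1, the pore of the translocon, moved by 0.99 ± 0.14 (SE), and Dnajb11, a partner of BiP, by 0.92 ± 0.18 (SE). Hspa5, which encodes BiP itself, read 15.05, 15.04 and 15.07 in DMSO at 24 h, 15.18, 15.11 and 15.17 in monuron at 24 h, 14.61, 15.11 and 15.36 in DMSO at 72 h and 15.70, 15.69 and 15.76 in monuron at 72 h. Its change was 0.59 ± 0.16 (SE), adjusted p 0.0103, and 0.38 without DMSO 72 h replicate 1.

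Vesicle transport between ER and Golgi moved in 1 direction. Of 47 tested genes 34 moved upward and 0 downward, with 34 and 0 at an unadjusted p below 0.05 in limma, and the median was 0.71. At 24 h 2 of them were higher with monuron, and at 72 h 41 were. From 24 h to 72 h 33 of them rose in monuron cells (28.6% of all genes) and 22 fell in DMSO cells (16.4%). Sar1a, the GTPase that starts the COPII coat, read 12.81, 12.72 and 12.87 in DMSO at 24 h, 12.60, 12.75 and 12.69 in monuron at 24 h, 12.11, 11.91 and 12.20 in DMSO at 72 h and 13.58, 13.51 and 13.80 in monuron at 72 h. The groups of 72 h lay on either side of both groups of 24 h, and the change was 1.68 ± 0.12 (SE), adjusted p 1.4e-06. Sec22b, a SNARE of vesicle fusion, read 11.88, 12.01 and 12.02 in DMSO at 24 h, 11.89, 11.99 and 12.04 in monuron at 24 h, 11.48, 11.58 and 11.56 in DMSO at 72 h and 12.71, 12.61 and 12.85 in monuron at 72 h. At 24 h its groups overlapped fully, and the change was 1.18 ± 0.13 (SE), adjusted p 1.7e-05. Arcn1, a COPI coat subunit, and Tmed2, a cargo receptor, moved by 0.95 ± 0.10 (SE) and 0.72 ± 0.07 (SE). Leaving out DMSO 72 h replicate 3 gave 38 upward and 0 downward.

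The windows of Dnajc3, Hspa5 and Zfand2a are shown for the ER stress response element, which is CCAAT, 9 bases of any kind, and CCACG. This element was searched after the values had been seen, and Zfand2a, a stress-induced zinc finger protein that binds the proteasome, was added for it. It occurred in 22 of 33469 windows (0.0657%) and in 15 of 7669 tested genes with a window (0.196%). Of these 15, 7 moved upward in the comparison of times, Canx, Creld2, Dnajc3, Hsp90b1, Hspa5, Xbp1 and Zfand2a, and 2 downward, Birc5 and Zfp57. Over all genes tested 18.3% moved upward and 19.6% downward. Most carriers that moved upward were genes of the ER list, in which 19 of 32 genes with a window moved upward. The element was in 8 of these 32 and in 6 of the 19. Its share of upward moves thus cannot be told apart from that of the list. Xbp1, a transcription factor of the unfolded protein response, moved by 0.80 and Creld2, an ER folding protein, by 1.21. The shorter letters are common: CCACG was in 49.3% and CCAAT in 38.9% of the windows of tested genes. They were in 29 and 24 of 32 tested ER genes, and in 18 and 16 of the 19 upward ones. The element ended 115 bases before the annotated start in Dnajc3 and 25 in Hspa5, on the printed strand. In Zfand2a it was on the opposite strand with its nearest base 152 bases before the start. Capitals mark the 2 fixed parts. The places on GRCr8 (RefSeq) were chr15:102432417-102432666 (plus strand) for Dnajc3, chr3:38452766-38453015 (plus strand) for Hspa5 and chr12:20275200-20275449 (plus strand) for Zfand2a.
Dnajc3: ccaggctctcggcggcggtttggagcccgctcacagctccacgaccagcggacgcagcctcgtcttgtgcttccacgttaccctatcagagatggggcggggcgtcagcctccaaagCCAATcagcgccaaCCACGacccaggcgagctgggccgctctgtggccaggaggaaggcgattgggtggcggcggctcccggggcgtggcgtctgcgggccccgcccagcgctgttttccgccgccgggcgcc
Hspa5: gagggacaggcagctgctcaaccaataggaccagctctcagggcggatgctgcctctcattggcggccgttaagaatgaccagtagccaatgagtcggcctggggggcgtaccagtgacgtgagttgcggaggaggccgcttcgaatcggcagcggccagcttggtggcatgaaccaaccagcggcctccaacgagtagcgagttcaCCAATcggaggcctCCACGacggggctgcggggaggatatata
Zfand2a: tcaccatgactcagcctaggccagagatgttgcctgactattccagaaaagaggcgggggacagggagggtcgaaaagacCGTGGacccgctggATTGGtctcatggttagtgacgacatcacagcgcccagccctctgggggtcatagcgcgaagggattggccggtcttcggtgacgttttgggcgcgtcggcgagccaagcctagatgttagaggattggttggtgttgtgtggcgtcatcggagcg

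**Figure D3:**
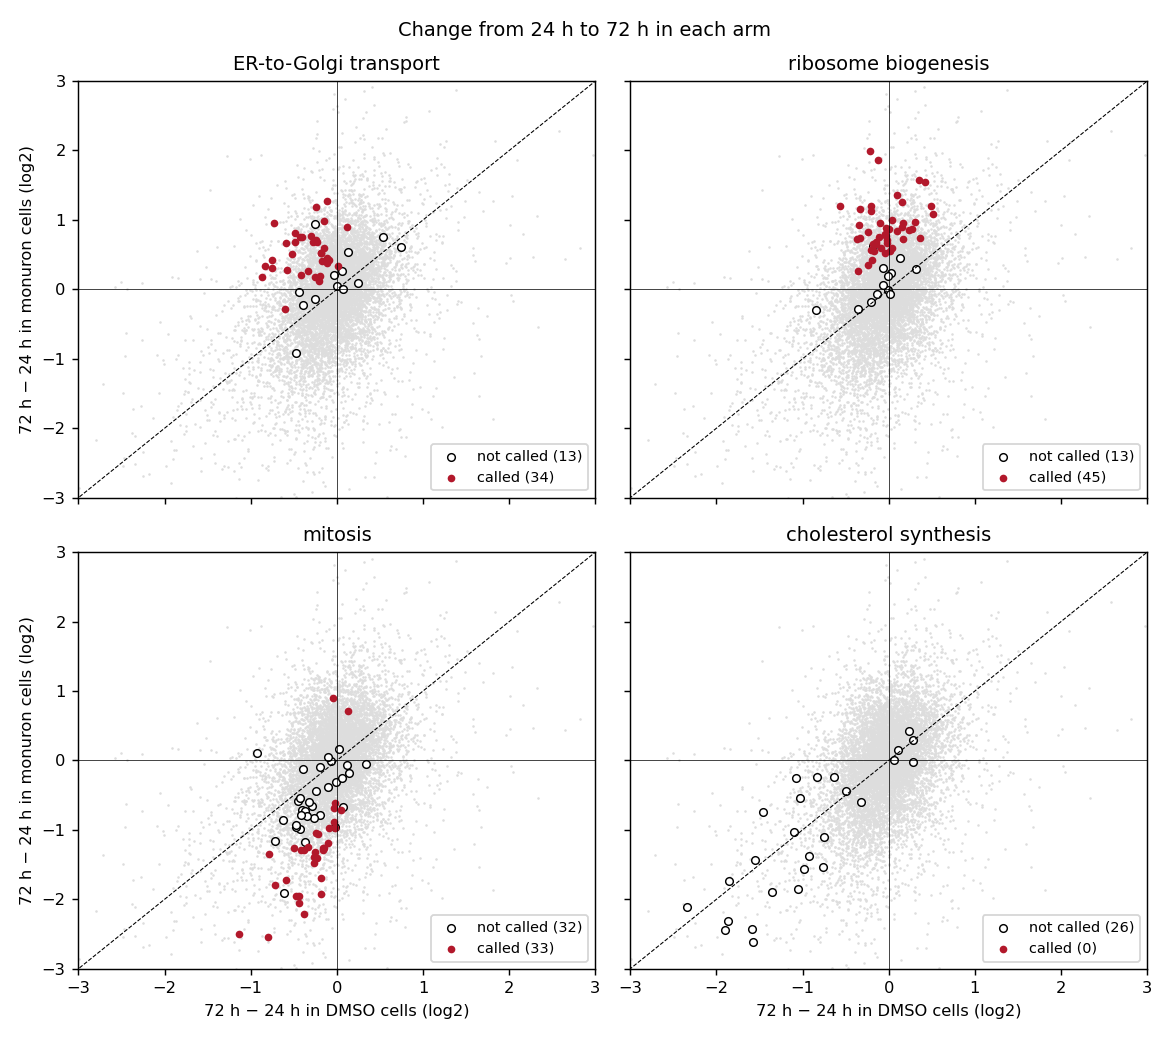
Change from 24 h to 72 h in DMSO cells (horizontal, log2) and in monuron cells (vertical, log2) for the genes of 4 lists over all genes tested (grey, drawn within 3 log2 units of 0); filled red points were called in the comparison of times, open points were not, and on the dashed line both changes are equal. Called ER-to-Golgi genes lie up and left of the line, ribosome biogenesis genes above it, 31 of 33 called mitosis genes below it, and all 26 cholesterol synthesis genes are open, most of them low in both arms.

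Genes that build ribosomes were lower with monuron or uncalled at 24 h and mostly higher at 72 h. Of 58 tested genes of ribosome biogenesis 45 moved upward and 0 downward, with a median of 0.74. At an unadjusted p below 0.05 limma gave 48 and 0. At 24 h 10 of the 58 were lower with monuron and 0 higher, and at 72 h 45 were higher and 2 lower. Of all genes tested 7.14% were lower at 24 h and 30.9% at 72 h. At 5 genes the response turned (Rrp12, Tsr1, Utp4, Bop1 and Fbl) and at 3 a lowered level returned (Utp14a, Utp20 and Polr1e). Rrp12, which exports ribosomal subunits, read 7.32, 7.19 and 7.13 in DMSO at 24 h, 6.62, 6.70 and 6.56 in monuron at 24 h, 7.07, 6.54 and 7.40 in DMSO at 72 h and 8.35, 8.48 and 9.02 in monuron at 72 h. At 24 h the monuron arrays were all below the DMSO arrays, at 72 h all above. The change was 2.20 ± 0.27 (SE), adjusted p 3.7e-05. Utp14a, a factor of the small subunit processome, read 7.25, 7.22 and 7.16 in DMSO at 24 h, 6.25, 6.20 and 6.10 in monuron at 24 h, 7.07, 6.81 and 6.71 in DMSO at 72 h and 7.07, 6.97 and 7.30 in monuron at 72 h. Its groups were apart at 24 h and overlapped at 72 h, a change of 1.28 ± 0.18 (SE), adjusted p 0.00011. Nolc1, a nucleolar chaperone, moved by 1.49 ± 0.18 (SE), or by 0.95 with the mean of its probe sets. The proteins of the cytosolic ribosome gave 0 upward and 1 downward of 39 in limma (0 and 3 at an unadjusted p below 0.05), Rpl11 at -0.28, and 28 of the 39 rose in DMSO and 25 in monuron cells from 24 h to 72 h.

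Translation factors moved upward at 19 of 39 genes and downward at 1. Eif3b, a scaffold of initiation factor 3, turned: it read 10.76, 10.76 and 10.57 in DMSO at 24 h, 10.42, 10.29 and 10.47 in monuron at 24 h, 10.47, 10.52 and 10.40 in DMSO at 72 h and 11.17, 11.28 and 11.37 in monuron at 72 h, and the monuron arrays were below the DMSO arrays at 24 h and above them at 72 h (1.12 ± 0.11 (SE), adjusted p 1e-05). Proteins of the mitochondrial ribosome gave 11 upward and 9 downward of 72, and 28 and 9 without DMSO 72 h replicate 3 or 22 and 10 with the replicate block. Mrpl36 and Mrpl20 moved by -1.40 and -1.31 and Mrps31 by 0.96.

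Genes of the proteasome, which degrades tagged proteins, started low with monuron. Of 37 tested genes 19 were lower and 0 higher at 24 h, where 7.14% of all genes were lower, and at 72 h 9 were higher and 11 lower. The response moved upward at 14 and downward at 2 (Psma2 and Psme1). At 5 genes it turned and at 6 it faded. Psmc4, an ATPase of the proteasome cap, read 12.01, 12.03 and 11.82 in DMSO at 24 h, 11.45, 11.43 and 11.44 in monuron at 24 h, 11.49, 11.50 and 11.62 in DMSO at 72 h and 11.76, 11.78 and 11.82 in monuron at 72 h. The monuron values lay under the DMSO values at 24 h and over them at 72 h, with 0.76 ± 0.10 (SE), adjusted p 6.2e-05, and 0.40 with the mean of its probe sets. The DMSO level fell by 0.42 and the monuron level rose by 0.35. In the DMSO arm 22 of the 37 genes fell between the times, where 16.4% of all genes tested did.

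Cytosolic chaperones and heat shock genes moved upward at 18 of 35 genes and downward at 3 (Hspa4, Cryab and Hspb1), and the upward count was 10 without DMSO 24 h replicate 1. Tcp1, a subunit of the chaperonin that folds actin and tubulin, turned from -0.19 to 0.30, and Dnajb1, a co-chaperone of Hsp70, was lower at 24 h (-0.53) and near the DMSO level at 72 h (0.16), a change of 0.69 ± 0.16 (SE). Splicing factors were lower with monuron at 25 of 50 genes at 24 h, where 7.14% of all genes tested were, and at 23 at 72 h, where 30.9% were, and 11 moved upward and 5 downward. The upward count was 7 without DMSO 24 h replicate 1, and the downward count 8 without DMSO 72 h replicate 3 and 3 without monuron 72 h replicate 3 or DMSO 72 h replicate 2. U2af1 and Hnrnpf, which bind splice sites, turned from -0.36 to 0.49 and from -0.37 to 0.35. Snrpa1, of the U2 particle, moved by 1.91 ± 0.26 (SE).

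**Figure D4:**
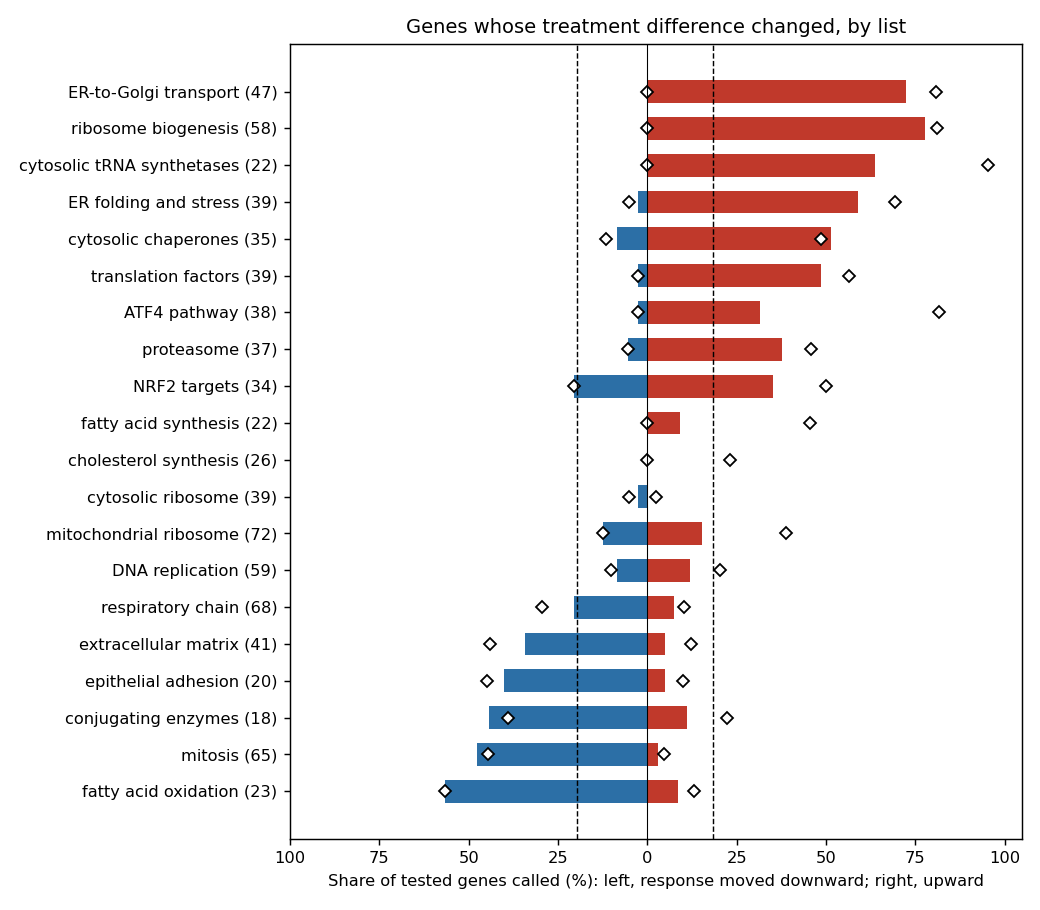
Share of the tested genes of 20 lists (number in parentheses) whose response moved upward (red, right) or downward (blue, left) between 24 h and 72 h, in percent; diamonds give the shares without DMSO 72 h replicate 3, and dashed lines the shares over all genes with all arrays (18.3% and 19.6%). ER-to-Golgi transport and ribosome biogenesis reach 34 of 47 and 45 of 58 genes upward, and the diamond of the ATF4 pathway lies far outside its bar (31 against 12 of 38).

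Mitotic genes were lower with monuron mostly at 72 h, replication genes at both times. Of 65 tested genes of mitosis 31 moved downward and 2 upward (Cenpk and Cks1b), with a median of -0.65. At 24 h 6 were lower with monuron, and at 72 h 56 were lower and 2 higher. Mki67, a protein of proliferating nuclei, read 11.57, 11.45 and 11.46 in DMSO at 24 h, 11.31, 11.20 and 11.24 in monuron at 24 h, 11.29, 11.54 and 11.20 in DMSO at 72 h and 10.18, 10.10 and 9.61 in monuron at 72 h. All monuron arrays of 72 h lay below all others, and the change was -1.13 ± 0.18 (SE), adjusted p 0.00023. Birc5, Kif20a and Cenpw, of the passenger complex, the central spindle and the kinetochore, moved by -1.09 ± 0.24 (SE), -1.62 ± 0.35 (SE) and -1.48 ± 0.31 (SE). Of 59 replication genes 21 were lower at 24 h, where 7.14% of all genes tested were, and 27 at 72 h, where 30.9% were. The response moved upward at 7 and downward at 5, shares under the 18.3% and 19.6% of all genes tested. Fen1, the flap endonuclease, read 9.47, 9.32 and 9.23 in DMSO at 24 h, 8.55, 8.64 and 8.41 in monuron at 24 h, 8.92, 9.12 and 9.0 in DMSO at 72 h and 9.0, 8.93 and 8.98 in monuron at 72 h. It was lower with monuron at 24 h and overlapped at 72 h (0.76 ± 0.13 (SE), adjusted p 0.00042). Rfc3, of the clamp loader, faded likewise (-0.68 to 0.05), while Orc2, of the origin complex, moved upward by 1.33 ± 0.16 (SE). Ccne1, the cyclin of the entry into S phase, was lower by similar amounts at both times (-1.06 and -1.14), and its change of -0.08 did not pass (adjusted p 0.747). Without DMSO 72 h replicate 3 the replication list gave 12 upward and without monuron 72 h replicate 1 10 downward.

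Mki67 is shown as a mitotic promoter. TTTGAA, one form of the cell cycle homology region, was in 35 of 55 windows of tested mitosis genes and in 16 of 24 of those that moved downward, against 11.3% of tested genes, and CCAAT was in 40 of 55 and 17 of 24. In Mki67 (chr1:199952594-199952843 (minus strand) on GRCr8, RefSeq) TTTGAA stood 2 times on the printed strand, and capitals mark it and CCAAT on both strands; the second TTTGAA overlaps a CCAAT of the opposite strand.
Mki67: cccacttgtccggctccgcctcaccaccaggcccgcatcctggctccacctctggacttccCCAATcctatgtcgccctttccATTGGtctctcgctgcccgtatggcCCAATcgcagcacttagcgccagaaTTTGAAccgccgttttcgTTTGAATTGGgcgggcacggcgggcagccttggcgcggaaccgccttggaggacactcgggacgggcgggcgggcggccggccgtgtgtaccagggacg

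Of 20 tested p53 targets 7 moved upward and 3 downward. Mdm2, the ligase that degrades p53, read 11.74, 11.66 and 11.49 in DMSO at 24 h, 11.69, 11.77 and 11.84 in monuron at 24 h, 11.09, 10.99 and 11.22 in DMSO at 72 h and 12.55, 12.56 and 12.96 in monuron at 72 h. Its groups overlapped at 24 h and were apart at 72 h, with 1.46 ± 0.21 (SE), adjusted p 0.00013. Plk2 and Aen, a kinase and a nuclease induced by p53, moved by 1.57 and 1.03, and Sesn1, which restrains mTOR, by -2.0 (-1.26 without monuron 72 h replicate 3). For Cdkn1a, the inhibitor of cyclin-dependent kinases, the change was 0.39 ± 0.27 (SE) and did not pass (adjusted p 0.261).

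Of 23 tested genes of fatty acid oxidation 13 moved downward and 2 upward, with a median of -0.55. Decr1, a dienoyl-CoA reductase, read 13.24, 13.28 and 13.18 in DMSO at 24 h, 13.59, 13.48 and 13.48 in monuron at 24 h, 13.09, 12.91 and 13.04 in DMSO at 72 h and 12.63, 12.77 and 12.55 in monuron at 72 h. Its monuron arrays lay above DMSO at 24 h and below at 72 h (-0.65 ± 0.10 (SE), adjusted p 0.00022). Acads and Acadm, acyl-CoA dehydrogenases, moved by -0.92 and -0.88. Pdk4, the kinase that shuts pyruvate dehydrogenase, was higher at 24 h (0.98) and overlapped at 72 h (-0.21). It rose by 1.60 in DMSO and by 0.40 in monuron cells, and the change was -1.19 ± 0.23 (SE), or -0.71 with the mean of its probe sets. Respiratory chain genes gave 5 upward and 14 downward of 68, a downward share near the 19.6% of all genes tested, and 8 and 18 with the replicate block. The downward count was between 7 and 9 without monuron 72 h replicate 3, monuron 24 h replicate 2 or 3, DMSO 24 h replicate 1 or DMSO 72 h replicate 2. Uqcrh, a hinge protein of complex III, read 13.12, 13.16 and 13.25 in DMSO at 24 h, 13.08, 13.13 and 13.19 in monuron at 24 h, 13.33, 13.37 and 13.25 in DMSO at 72 h and 12.38, 12.37 and 11.99 in monuron at 72 h, lowest in monuron at 72 h with no overlap (-1.03 ± 0.12 (SE), adjusted p 3.7e-05). Cox6a2, the heart and muscle form of a complex IV subunit and no member of the list tested, read 1.72, 1.73 and 1.73 in DMSO at 24 h, 1.75, 1.73 and 1.71 in monuron at 24 h, 1.72, 1.72 and 7.68 in DMSO at 72 h and 8.68, 8.87 and 8.99 in monuron at 72 h. It was near background on all arrays of 24 h and on 2 DMSO arrays of 72 h, and high in monuron at 72 h and on DMSO 72 h replicate 3. Its change was 5.14 ± 1.41 (SE) with that array and 7.12 without it.

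Cholesterol synthesis genes fell in each arm at 15 of 26, and their response passed the test at 0. Over all genes tested 32% fell in monuron and 16.4% in DMSO cells. Of the 26, 0 moved upward and 0 downward in limma, and at an unadjusted p below 0.05 0 and 1. The median change from 24 h to 72 h was -1.06 in monuron cells and -1.01 in DMSO cells. Sqle, squalene epoxidase, fell in DMSO cells (-1.46), and its monuron value of -0.74 did not pass. The list's count turned on single arrays: 6 genes moved upward without DMSO 72 h replicate 3, and 11 downward and 1 upward without DMSO 72 h replicate 1. Fatty acid synthesis gave 2 upward and 0 downward of 22 (4 and 2 at an unadjusted p below 0.05), and 10 upward without DMSO 72 h replicate 3, 6 downward without replicate 1.

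Glycolytic and hypoxia genes gave 9 in each direction of 36. Bnip3l, a receptor for the removal of mitochondria, and Ldhb, a lactate dehydrogenase, moved by -1.49 and -1.14, and the upward count was 5 without monuron 72 h replicate 3 and 15 without DMSO 72 h replicate 3. Lysosome and autophagy genes gave 8 upward and 9 downward of 53, near the 18.3% and 19.6% of all genes tested. Gla, the α-galactosidase whose loss causes Fabry disease, read 10.83, 10.88 and 10.91 in DMSO at 24 h, 10.83, 10.75 and 10.74 in monuron at 24 h, 10.65, 10.55 and 10.59 in DMSO at 72 h and 8.76, 8.52 and 8.15 in monuron at 72 h. Its monuron arrays of 72 h were more than 1.5 log2 units below every other array (-2.02 ± 0.17 (SE), adjusted p 3.1e-06). Gusb, β-glucuronidase, moved by -1.91 ± 0.25 (SE), and Sqstm1, an autophagy receptor, upward by 0.60 ± 0.10 (SE), or 0.34 with the mean of its probe sets.

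Of 7 tested targets and partners of the aryl hydrocarbon receptor 3 moved downward (Cyp1a1, Tiparp and Nfe2l2) and 1 upward (Cyp1b1). Nfe2l2, the gene of NRF2, had -0.26 and did not pass without monuron 24 h replicate 1, DMSO 24 h replicate 2 or DMSO 72 h replicate 1 (adjusted p 0.0526, 0.0557 and 0.0502). Cyp1a1 read 3.79, 3.39 and 2.98 in DMSO at 24 h, 6.43, 6.53 and 6.47 in monuron at 24 h, 2.90, 4.51 and 3.94 in DMSO at 72 h and 2.62, 2.60 and 2.64 in monuron at 72 h. At 24 h the monuron arrays were all above DMSO, and at 72 h all below it in a range under the array median. Of the DMSO arrays of 72 h only replicate 2 lay above its array median, so the 72 h difference lay mostly among low values. The change was -4.25 ± 0.58 (SE), adjusted p 9.2e-05, and with low values set to the median -2.55. Tiparp, which feeds back on the receptor, went from 0.55 to 0.06 (-0.49 ± 0.13 (SE), or -0.75 with the mean of its probe sets). Cyp1b1 had the opposite course, from -0.65 to 0.24 (0.89 ± 0.26 (SE)), and its DMSO level fell by 0.89. NRF2 targets gave 12 upward and 7 downward of 34. The upward count was 7 with only the 12 arrays of 24 h and 72 h, and ran from 8 to 17 with 1 array left out. Hmox1, heme oxygenase, read 5.80, 5.79 and 5.64 in DMSO at 24 h, 5.85, 5.64 and 5.78 in monuron at 24 h, 4.09, 4.49 and 6.57 in DMSO at 72 h and 6.68, 7.29 and 7.83 in monuron at 72 h, with the third DMSO array of 72 h near the monuron range; its change was 2.20 ± 0.62 (SE), and 2.96 without that array. Srxn1, sulfiredoxin, and Txnrd1, thioredoxin reductase, moved by 2.0 ± 0.39 (SE) and 0.98 ± 0.15 (SE). For Nqo1, a quinone reductase, the change of -0.07 did not pass (adjusted p 0.849). Of 18 conjugating enzymes 8 moved downward and 2 upward; Mgst3 moved by -2.08, and Gstt2 turned from 0.78 to -0.25 (a change of -0.58 with the mean of its probe sets).

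Of 15 tested clock genes 4 moved upward and 3 downward, near the 18.3% and 19.6% of all genes tested, counts that became 7 and 4 without DMSO 72 h replicate 3, while 2 moved upward without monuron 24 h replicate 2 or 3, DMSO 24 h replicate 1 or 2, monuron 72 h replicate 3 or DMSO 72 h replicate 1. Dbp, an output factor of the clock, read 7.40, 7.49 and 7.29 in DMSO at 24 h, 8.80, 8.76 and 8.59 in monuron at 24 h, 7.80, 8.16 and 8.22 in DMSO at 72 h and 7.86, 7.95 and 7.90 in monuron at 72 h. It was higher with monuron at 24 h and overlapped at 72 h (-1.48 ± 0.25 (SE), adjusted p 0.00041). Tef, its relative, was lower at 72 h (-2.92) and moved by -2.40 ± 0.44 (SE), or by -1.29 with the mean of its probe sets. Cry1, a repressor of the clock, read 6.91, 7.29 and 6.90 in DMSO at 24 h, 7.61, 7.70 and 7.77 in monuron at 24 h, 6.60, 7.52 and 7.93 in DMSO at 72 h and 9.63, 9.73 and 10.20 in monuron at 72 h and moved upward by 1.85 ± 0.37 (SE). Per3 was higher by 1.28 at 24 h and 1.14 at 72 h, and its change did not pass (adjusted p 0.75).

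Matrix and adhesion genes moved downward more often than upward: 14 and 2 of 41 for matrix (18 and 5 without DMSO 72 h replicate 3), 8 and 1 of 20 for epithelial adhesion. Col14a1, a fibril-associated collagen, grew from -2.19 to -6.04. It read 10.35, 10.42 and 10.45 in DMSO at 24 h, 8.25, 8.11 and 8.27 in monuron at 24 h, 9.30, 8.66 and 8.51 in DMSO at 72 h and 2.30, 3.78 and 2.27 in monuron at 72 h, and at each time the monuron arrays were below the DMSO arrays. The change was -3.85 ± 0.42 (SE), adjusted p 1.9e-05, and -2.59 with low values at the median, and all monuron values of 72 h lay under the array median. Ccn5, a secreted growth regulator, moved by -3.54 ± 0.31 (SE) and by -1.93 with low values at the median. Col1a1, the main chain of collagen I, moved by -1.55 ± 0.30 (SE) and Timp1, a protease inhibitor, by -0.76 ± 0.12 (SE). Itga6, an integrin that binds laminin, moved by -1.15 ± 0.11 (SE), and Itgav turned from 0.37 to -0.97. For these integrins the mean over all probe sets did not pass (adjusted p 0.2325 and 0.8155). Krt8, an epithelial keratin, moved by -0.83 ± 0.13 (SE).

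Genes of actin and its transcription factors gave 13 upward and 4 downward of 33. Myl9, a smooth muscle myosin light chain, read 2.65, 2.72 and 2.50 in DMSO at 24 h, 3.44, 3.70 and 3.10 in monuron at 24 h, 2.51, 2.44 and 2.38 in DMSO at 72 h and 6.52, 6.61 and 6.97 in monuron at 72 h, above the array median in monuron at 72 h alone (3.47 ± 0.40 (SE)). Srf, the factor of actin-linked genes, moved by 1.21 ± 0.17 (SE) and Acta2 by 1.34 ± 0.40 (SE) (0.83 without DMSO 72 h replicate 1, and adjusted p 0.0501 with only the 12 arrays of 24 h and 72 h). Immediate early genes gave 12 upward and 5 downward of 32, with Id3 and Id1, inhibitors of differentiation, at -1.65 and -0.97. Growth factor genes gave 6 upward and 8 downward of 29. Kitlg, the ligand of the receptor Kit, read 8.0, 8.10 and 8.0 in DMSO at 24 h, 7.76, 7.77 and 7.64 in monuron at 24 h, 11.01, 9.61 and 8.90 in DMSO at 72 h and 6.43, 6.15 and 4.99 in monuron at 72 h. It rose in DMSO cells (1.81) and fell in monuron cells (-1.87), for a change of -3.68 ± 0.55 (SE), adjusted p 0.00017. Fst, an activin antagonist, and Vegfc, which drives lymphatic growth, moved by -1.48 and -1.40, both with a rise in DMSO and a fall in monuron cells. Interferon genes gave 6 upward and 5 downward of 27, near the 18.3% and 19.6% of all genes tested. Psmb8, a subunit of the immunoproteasome, grew from 1.06 to 2.56.

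Iron genes gave 6 upward and 7 downward of 22, the downward count 4 without DMSO 72 h replicate 2. Tfrc, the transferrin receptor through which cells take up iron, read 12.61, 12.66 and 12.98 in DMSO at 24 h, 11.28, 11.10 and 11.32 in monuron at 24 h, 12.11, 11.25 and 13.42 in DMSO at 72 h and 8.0, 8.44 and 8.04 in monuron at 72 h. Monuron arrays were lower at both times, and at 72 h all lay below every other array. The change was -2.59 ± 0.47 (SE), adjusted p 0.00066, and -1.70 with arrays weighted by their fit. Slc25a37, which brings iron into mitochondria, read 4.27, 4.02 and 4.36 in DMSO at 24 h, 4.60, 4.79 and 4.57 in monuron at 24 h, 4.18, 3.97 and 4.48 in DMSO at 72 h and 6.74, 6.85 and 8.31 in monuron at 72 h and moved upward by 2.65 ± 0.42 (SE), adjusted p 0.00025.

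Named among the genes that turned downward, beside Cyp1a1, were Pdlim2, Cys1, C1qtnf1, Ypel4 and Smad9. Pdlim2, a cytoskeletal adaptor and ubiquitin ligase, read 9.04, 9.10 and 9.12 in DMSO at 24 h, 9.90, 10.07 and 9.95 in monuron at 24 h, 8.81, 9.16 and 8.86 in DMSO at 72 h and 6.90, 7.11 and 5.84 in monuron at 72 h. Monuron arrays were above DMSO at 24 h and far below at 72 h (-3.22 ± 0.33 (SE), adjusted p 1.6e-05). Cys1, a protein of the primary cilium, read 5.96, 6.05 and 6.24 in DMSO at 24 h, 7.20, 7.28 and 7.32 in monuron at 24 h, 7.41, 7.92 and 6.57 in DMSO at 72 h and 5.93, 5.64 and 4.28 in monuron at 72 h (-3.20 ± 0.52 (SE)). C1qtnf1, a secreted relative of complement C1q, rose in DMSO cells (1.35) and fell in monuron cells (-1.27), with -2.62 ± 0.28 (SE). Smad9, which carries signals of bone morphogenetic proteins, did the same (1.65 and -0.72), with -2.37 ± 0.40 (SE), or -1.18 with the mean of its probe sets. Zfand2a, Rrp12, Trim36, Ankrd37, Eipr1 and Cxcl1 were those that turned upward with the largest changes (low values at the array median). Zfand2a read 10.07, 9.96 and 9.79 in DMSO at 24 h, 9.08, 9.04 and 8.88 in monuron at 24 h, 8.80, 8.66 and 9.64 in DMSO at 72 h and 9.92, 10.18 and 10.92 in monuron at 72 h. The order of the treatments was reversed without overlap at both times (2.25 ± 0.33 (SE), adjusted p 0.00013). Trim36, a ubiquitin ligase, read 9.80, 9.78 and 9.59 in DMSO at 24 h, 9.23, 9.09 and 9.05 in monuron at 24 h, 7.85, 8.30 and 8.63 in DMSO at 72 h and 9.09, 9.30 and 9.44 in monuron at 72 h; its DMSO level fell and its monuron level was uncalled (1.62 ± 0.22 (SE)). Cxcl1, a chemokine, fell in both arms, more in DMSO (-2.46) than in monuron cells (-0.96).

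Among the faded responses Slc29a1, a nucleoside carrier, went from 1.66 to -0.08, Esrrg, an orphan nuclear receptor, from 1.05 to -0.71, and Ribc1 from 1.48 to -0.21. Called lower at 24 h and not called at 72 h were Eomes, a T-box factor (-2.07 to -0.54), Isg15, a ubiquitin-like protein induced by interferon (-1.04 to 0.46), and Nat10, an RNA acetyltransferase (-0.81 to 0.41). Isg15 did not pass without monuron 24 h replicate 1, monuron 72 h replicate 3 or DMSO 72 h replicate 2 (adjusted p 0.0521, 0.0617 and 0.0557). Eomes was above the array median on the DMSO arrays of 24 h only, and its change of 1.53 was 0.85 with the mean of its probe sets.

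Grown responses, beside Fgf21, Col14a1 and Tfrc, included Mbd5, a methyl-CpG binding protein, which read 7.81, 7.92 and 7.81 in DMSO at 24 h, 7.10, 7.21 and 7.07 in monuron at 24 h, 8.33, 8.05 and 7.58 in DMSO at 72 h and 4.33, 4.58 and 3.85 in monuron at 72 h and moved by -3.01 ± 0.27 (SE), adjusted p 7.5e-06. Hsbp1, which binds heat shock factor, and Pex19, the import receptor of peroxisomes, moved by -1.94 and -1.74. Tgfa, a ligand of the EGF receptor, grew upward by 1.33 ± 0.23 (SE), and Cog5, of the Golgi tethering complex, by 1.30 ± 0.28 (SE). Arisen responses with the largest changes, low values at the array median, were Cox6a2, Ddr2, Piga, Avil, Amigo3 and Eef1akmt4 upward and Kitlg, Sema3a, Myb, Bmper, Fam180a and Pcdhb12 (-1.82 with the mean of its probe sets) downward. A gene low on most arrays could pass the filter through the group where it was high, as Fgf21 did. These ranks thus hold among genes that passed it. Piga, the first enzyme of the GPI anchor, moved by 3.44 ± 0.52 (SE), and Ddr2, a collagen receptor, by 3.33 ± 0.71 (SE). Sema3a, a guidance cue, Bmper, a regulator of bone morphogenetic proteins, and Myb, a transcription factor of progenitor cells, moved by -3.47 ± 0.71 (SE), -3.57 ± 0.63 (SE) and -3.77 ± 0.81 (SE).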

How the data were processed

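RNA was measured on Affymetrix rat arrays, 1 per sample. The deposited values are on the log2 scale, and GCRMA is the tool in the submitters' processing notes; its version is not given in the sources used here, and arrays have no read depth, so the number of arrays limits the precision. Of 31099 probe sets, 57 were controls, 20826 had 1 gene symbol, 436 several and 9780 none. Each of 14217 genes was read from its brightest probe set over the cell arrays, and the 9042 genes above the array median on at least 3 of the 18 cell arrays were tested. All 18 cell arrays (6 groups of 3, including 6 h) were fitted with limma 3.58.1 in R 4.3.3 (lmFit, eBayes with trend, 12 residual degrees of freedom, two-sided, Benjamini-Hochberg over all genes tested, threshold 0.05). SE is limma's moderated error. It rests on 1 spread per gene over all 18 arrays. Residual SDs of single arrays ran from 0.097 to 0.187 at 6 h and 24 h and from 0.157 to 0.393 at 72 h. The shared spread can thus understate that of the 72 h groups. Limited values are values below the array median set to it. The script was tested on simulated data. Alternatives were 30 settings, 18 of them without 1 array. No batch is named in the labels or the table. Same-numbered arrays of 24 h did not deviate together. Those of 6 h and 72 h did at a low correlation, which some arrays of unlike number also reached. The block was therefore kept as an alternative, and the closing section gives the check.

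The members and the 42 gene lists (1632 entries, 1455 on the array) were chosen with earlier results of these data known. Named genes are the 6 with the largest limited change per class and direction among genes called with both deposited and limited values (numbered gene models skipped), up to 4 per list with the smallest adjusted p, and a panel of 40. The text names part of them. Bop1, Fbl, Utp20, Polr1e, Dnajc10, Cenpk, Cks1b, Hspa4, Cryab, Hspb1, Psma2, Psme1, Herpud1, Jdp2 and the genes listed for the ER stress response element were named after their values were seen. Promoter windows were those of RefSeq on GRCr8 (250 bases before and 50 after the start). Windows were found for 24 of 29 named genes of 4 lists, and both strands were searched for 8 motifs, of which CCACG and CCAAT are parts of the ER stress response element and CCACG can overlap CACGTG.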

Additional observations from a re-analysis of the deposited data

Results flagged for a closer look

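The responses at 24 h and at 72 h differed by the test of the difference itself at 3423 genes. At 138 genes both times were called with opposite signs, and at 119 of these the arrays of the treatments did not overlap at either time. These genes were chosen by their calls at both times, which makes such gaps likely. The lack of overlap is thus no separate support, and its share over all genes was not computed. Single genes singled out by the same test were Cyp1a1 with a change of -4.25 (log2), Pdlim2 with -3.22, Cys1 with -3.20, C1qtnf1 with -2.62 and Smad9 with -2.37, all from higher to lower with monuron, and Zfand2a with 2.25, Rrp12 with 2.20 and Trim36 with 1.62, from lower to higher. At 72 h Cyp1a1 lay under the array median on all arrays except DMSO replicate 2, so its turn to lower rests mostly on low values. With low values set to the median its change was -2.55. Single outlying values within groups of 3 arrays were not tested.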

How the results depend on the processing

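The number of genes whose response changed was 2777 without monuron 72 h replicate 3 and 4411 without DMSO 72 h replicate 3, the range over arrays left out (1342 to 2320 upward, 1435 to 2091 downward). Over the same settings 37 to 604 genes grew, 2131 to 3191 arose, 100 to 285 faded and 43 to 223 turned, and 4690 to 5847 moved in monuron and 1735 to 3403 in DMSO cells. With only the 12 arrays of both times the response changed at 2808 genes (1354 upward, 1454 downward), and 45 grew, 133 faded and 63 turned. The upward count of the ATF4 pathway was then 5, of amino acid synthesis 1 and of cytosolic synthetases 9. That of cytosolic chaperones was 11 and of glycolytic and hypoxia genes 5, and the downward count of the respiratory chain was 8. With no filter on dim probe sets 78 grew. With array weights 2594 moved upward, 1240 grew, 629 faded, 722 turned and 4361 moved in DMSO cells. Without both 72 h arrays of number 3, 752 grew, 252 turned and 3841 moved in DMSO cells. The deviations of same-numbered arrays correlated at -0.116, -0.116 and 0.128 at 24 h, 0.205, 0.167 and 0.317 at 72 h and 0.491, 0.197 and 0.290 at 6 h, and 0 of 6 arrays of 24 h and 4 of 6 at each other time correlated best with their own number. Arrays of unlike number correlated at up to 0.400 at 24 h, 0.275 at 72 h and 0.301 at 6 h. With the replicate block within each time 1963 genes moved upward (21.7%) and 1957 downward (21.6%), 420 grew and 220 turned, and 3337 of the 3423 genes were called with the same sign. Under that block Atf3, Col3a1, Pcna and Per2 passed as well (adjusted p 0.0237, 0.0139, 0.0317 and 0.0173, limma), and the upward counts of the mitochondrial ribosome, carriers, respiratory chain, fatty acid synthesis and matrix went from 11, 3, 5, 2 and 2 to 22, 6, 8, 4 and 4. Of 182 called named genes 167 were called under every setting in which they were tested. Most named genes were chosen by the size or the adjusted p of their change in these same data. The share thus does not describe the 3423 genes, for which it was not computed. Fgf21, Cox6a2, Ddr2, Avil, Stc2 and Cd68 were tested in 29 of the 30 settings. Gatm, with -0.02, ran from -0.43 without DMSO 72 h replicate 1 to 0.72 without DMSO 72 h replicate 3 and 0.64 without both 72 h arrays of number 3. The causes of these shifts were not tested.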

Other observations

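The arrays of 6 h, which the comparison of times did not use as a contrast, gave a difference between monuron and DMSO at 6.31% of all genes tested. Among genes that later turned from higher to lower the share was 25% (13 higher and 3 lower at 6 h, of 64), among genes that faded from higher 14% and among genes whose raised level grew 18%, and it was 10.8% among genes that turned from lower to higher, 12.1% among genes that faded from lower and 10.1% among genes whose lowered level grew. It was 9.52% and 8.62% among upward and downward moves called at neither 24 h nor 72 h, and 3.45% and 4.35% among the responses that arose upward and downward. Nupr1 was higher by 0.63 at 6 h (adjusted p 0.0085, limma), and Fgf21 read -0.04 (adjusted p 0.9542). Cyp1a1 was lower by 1.66 at 6 h (a difference of -1.66, adjusted p 0.0266, limma), before it was higher at 24 h and lower at 72 h. Its difference at 72 h lay mostly among values under the array median. Cyp1b1 was lower already at 6 h, at -0.99 (adjusted p 0.0072). These values use the same DMSO and monuron labels but other arrays than the 24 h and 72 h groups. The calls of all times share 1 spread per gene, so a gene with a small spread is more readily called at each time. The shares at 6 h are thus not independent of the classes.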
